A study of Mus musculus with 36 samples.

Results

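The Rab GTPases measured here are 59 genes. They were taken by name, as the protein-coding rows of the counts whose symbol is Rab, a number and at most a letter with a digit, out of 55358 rows of which 21834 are protein-coding. Rab regulators and effectors with similar names were not members. RNA sequencing was done on 36 libraries of primary keratinocytes of newborn mouse pups, 3 in each of 12 groups, which combine 3 genotypes with growth for 24 h or 72 h in low-calcium medium (LCM) or high-calcium medium (HCM). WT cells came from Pkp4+/+ pups and PKP4-KO cells from Pkp4-/- pups, both on a C57BL/6J background. The Pkp4-/- allele lacks exon 9 of Pkp4, which encodes plakophilin 4, an armadillo-repeat protein of cell-cell junctions, and its reporter had been removed. Rescue cells are PKP4-KO keratinocytes that carry lentiviral EGFP-tagged human PKP4 and were selected with puromycin. The study also made EGFP-expressing WT cells with the same type of vector and selection, but the labels do not place such cells in the WT libraries, so that the added PKP4 and the transduction cannot be told apart in Rescue. The labels call the 3 libraries of a group biological replicates without naming separate cultures or pups, and the p-values below measure the spread between these libraries only.

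Rab proteins are small GTPases that mark the membranes of the secretory and endocytic routes. In the GTP form they recruit effectors such as motors, tethers and lipid kinases. Exchange factors load them with GTP, GTPase-activating proteins (GAPs) switch them off, escort proteins present new Rab proteins for prenylation, and GDI extracts them from membranes. Rab5 acts on early endosomes, Rab4 and Rab11 in recycling to the surface, Rab7 on late endosomes and lysosomes, Rab1 and Rab2 between the ER and the Golgi, Rab8 and Rab10 in delivery to the plasma membrane, and Rab3 and Rab27 in regulated secretion. In keratinocytes these routes carry cadherins, integrins and lamellar bodies, and melanosomes that keratinocytes receive from melanocytes are handled on the endosomal and lysosomal route. A rise in calcium makes cultured keratinocytes form junctions and begin to differentiate.

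Library totals lay between 13602728 and 22467187 counts. TMM factors, which correct for differences in RNA composition, were 0.481 to 0.546 in the PKP4-KO 72 h HCM libraries and 0.705 to 1.39 in all others. That group therefore has the lowest effective depth. For Pkp4, PKP4-KO libraries held 44 to 232 counts, Rescue libraries 101 to 273 and WT libraries 326 to 1443. The GFP-PKP4 sequence had 1902 to 15325 counts in Rescue and at most 113 elsewhere. WT and PKP4-KO did not overlap for Pkp4 in any condition, where the exact two-sided permutation test gave p = 0.1, the smallest that 3 against 3 libraries allow. All 11 keratinocyte markers were above 3 counts in every group. The summed level of 13 suprabasal keratinocyte markers was 24286 to 26245 CPM (counts per 1000000 of the TMM-scaled library size) in PKP4-KO 72 h HCM against 4442 to 11423 CPM in WT and 3639.9 to 4055 CPM in Rescue. Most of the PKP4-KO sum was Krtdap, Krt10 and Krt1, with group means of 12973.5, 4437 and 3752 CPM against 3576, 533 and 39.7 in WT. Ivl, Lor and Dsg1a went the other way there, at 20.3, 40.4 and 48.9 CPM in PKP4-KO against 144, 238 and 74.4 in WT. Over all 4 conditions, 11 fibroblast markers summed to 3.99 to 10.5 CPM in PKP4-KO. The sums were 21.8 to 35.1 CPM in WT and 22.9 to 46.1 CPM in Rescue. At or under 3 counts were 6 to 8 of the 11 in each PKP4-KO group, 2 to 8 in WT and 3 to 6 in Rescue. Most of these sums was Fbln1 and Twist2. Group means of Fbln1 were 1.96 to 4.88 CPM in PKP4-KO, 16.2 to 21.8 in WT and 13.4 to 24.6 in Rescue. Those of Col1a1, Col1a2 and Col3a1 were at most 1.69, 1.52 and 1.63 CPM in any group. Simple epithelium markers, 7 in all, summed to 259 to 568 CPM in Rescue and 101 to 475 CPM in WT. Their sum was 22.7 to 221 CPM in PKP4-KO, and 1 to 4 of the 7 were at or under 3 counts in each group. Group means of Krt7 among them were 96.8 to 347 CPM in Rescue, 3.42 to 6.92 in WT and 7.13 to 11.7 in PKP4-KO. Most of the WT sum was Cldn4, with group means of 86.6 to 389 CPM in WT and 108 to 264 in Rescue. In PKP4-KO the Cldn4 means were at most 169 CPM. In each condition the PKP4-KO mean stood above WT for Krt7 and below WT for Cldn4. In 24 h HCM Cldn4 was at 389 CPM in WT, 264 in Rescue and 12.6 in PKP4-KO. Immune cell markers, 11 in all, summed to 68.2 to 179 CPM in Rescue, 22.6 to 61.5 CPM in WT and 6.86 to 47.9 CPM in PKP4-KO, with 4 to 9 of the 11 at or under 3 counts in each group. Nearly all of that sum was Cd68, which is also a lysosomal gene, while Ptprc, the marker of leukocytes, had at most 4 counts in any library. Krt15, a keratin of basal cells, had group means of 511 to 2057 CPM in PKP4-KO, 7.03 to 125 in WT and 30.5 to 132 in Rescue. Between PKP4-KO and WT, Krt5 went the same way in all 4 conditions. Itga6 and Col17a1 of the keratinocyte list went the other way in all 4. Group means of Itga6 were 29.0 to 115 CPM in PKP4-KO and 106 to 265 in WT. Those of Col17a1 were 176 to 439 CPM in PKP4-KO and 328 to 655 in WT. Those of Krt5 were 14903 to 27586 and 11978 to 18940 CPM in the same order. Krt14, Trp63 and Itgb4 lay above WT in some conditions and below it in others. The part of these markers in the results was not tested, and in bulk RNA fewer cells of a type and less RNA per cell cannot be told apart.

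Of the 59 Rab genes, 50 passed the filter on low counts among 15114 genes tested. The other 9 were Rab33a, Rab39, Rab27a, Rab39b, Rab42, Rab26, Rab9b, Rab36 and Rab19. Rab27a, which works in melanosome and granule secretion, had at most 5 counts in any library, and Rab19 had 0 in all 36. Levels between genes were compared as CPM per kb of gene length, averaged over the 36 libraries. Rab25, the epithelial member of the Rab11 group, stood highest at 237 CPM per kb. Rab7 of late endosomes and lysosomes followed at 140.4 CPM per kb and Rab5c of early endosomes at 120.2 CPM per kb. Next came Rab2a, Rab1b and Rab11a at 84.5, 81.1 and 80.8 CPM per kb, Rab38 at 76.5, Rab1a at 52.4 and Rab10 at 44.3 CPM per kb. Rab25 also ranged widely between groups, from a mean of 159 CPM in PKP4-KO 24 h HCM to 1102 CPM in PKP4-KO 72 h HCM.

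Within families, 1 member usually dominated on this scale. Rab5c was at 120.2 CPM per kb, Rab5b at 11.4 and Rab5a at 8.90. Rab11a was at 80.8 CPM per kb and Rab11b at 14.8, while Rab4a and Rab4b were at 2.26 and 0.315. Among secretory members, Rab3d was at 25.8 CPM per kb, Rab3a at 1.43, Rab27b at 1.40 and Rab44 at 0.961. Members of a family are similar in sequence, and the authors dropped secondary alignments before counting, while any further treatment of reads that match several genes is not given. Small values beside a high paralog are therefore uncertain. The plot of levels shows the genes in order, with the 12 groups of most genes close together.

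**Figure D1:**
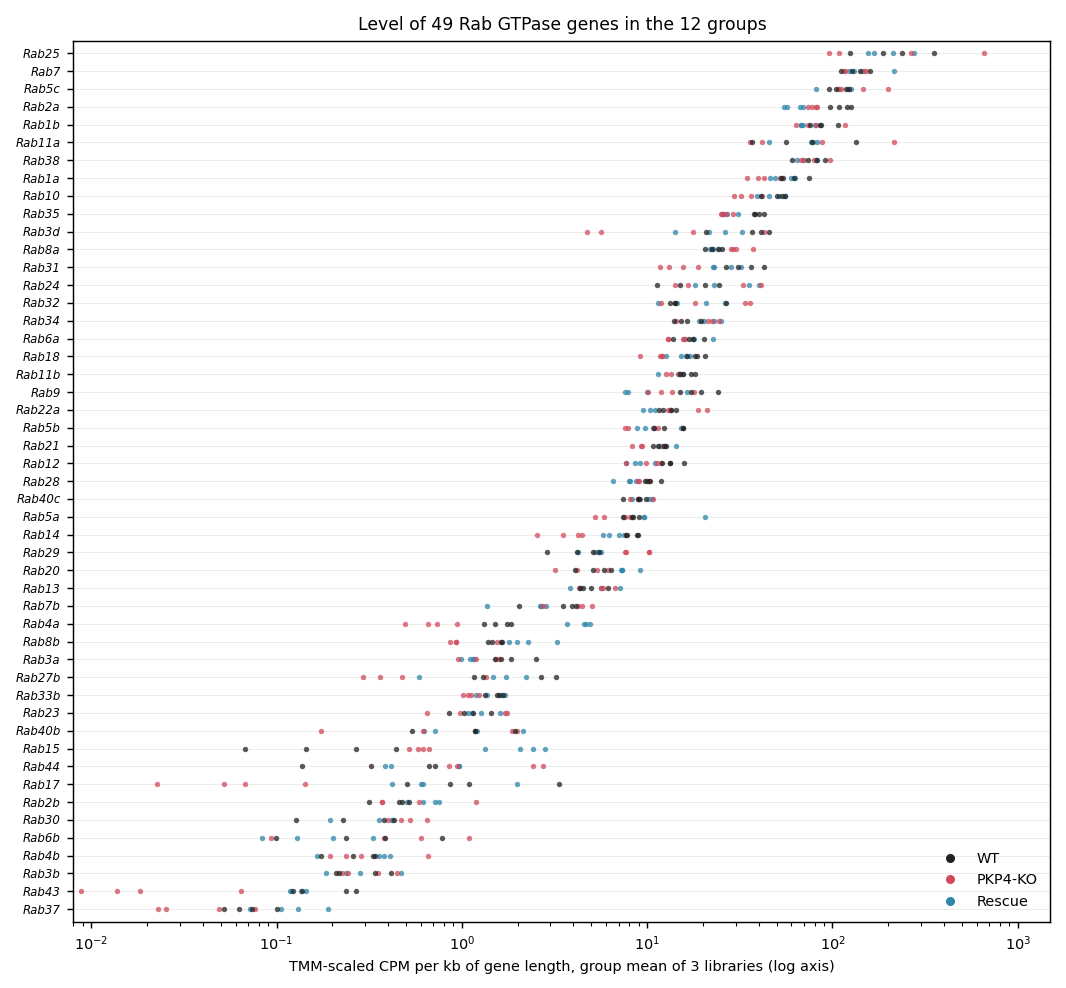
Level of the 49 highest Rab genes, as TMM-scaled CPM per kb of gene length on a log axis; each point is the mean of 3 libraries in 1 of the 12 groups, coloured by genotype. Rab25 stands at the top with a mean of 237 CPM per kb over the 36 libraries, and Rab17 and Rab43 spread far between genotypes.

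The comparison of HCM with LCM in WT shows how the Rab genes moved when calcium was raised. Rab11a and Rab25 of the recycling route, Rab7 of the lysosomal route, and the secretory members Rab27b and Rab44 were higher in HCM at both times, and no Rab gene was lower at both. Their log2 fold changes lay between 0.31 for Rab7 and 2.28 for Rab44. In all, 9 Rab genes rose and 1 fell at 24 h, where 14.2% of all tested genes passed, 7.69% higher and 6.48% lower (edgeR quasi-likelihood test, Benjamini-Hochberg adjusted p below 0.05). At 72 h 7 rose and 4 fell, where 21.4% passed, 10.6% higher and 10.8% lower. The 24 h rise of Rab38 did not pass with the replicate number as a block (adjusted p = 0.0526). The 5 genes higher at both times are 10% of the Rab genes tested, against 7.56% of all tested genes called the same way at both times. Without TMM factors the median of all genes moved to -0.27 at 24 h and -0.28 at 72 h, and the calls became 6 higher with 7 lower and 4 higher with 8 lower.

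Rab11a (chromosome 9, 64581321 to 64645054 of GRCm39) directs recycling endosomes to the surface. In WT it was at 104, 116 and 112 CPM in LCM and 241, 255 and 204 CPM in HCM at 24 h. At 72 h it was at 167, 153 and 182 CPM in LCM and 398, 378 and 428 CPM in HCM. HCM and LCM libraries did not overlap, and the log2 fold change was 1.08 ± 0.13 (adjusted p = 7.81e-07) at 24 h and 1.26 ± 0.13 (adjusted p = 3.71e-08) at 72 h. Rab25 (chromosome 3, 88449335 to 88455618 of GRCm39) acts on apical recycling in epithelia. Its libraries lay at 176, 241 and 208 CPM in LCM and 327, 465 and 392 CPM in HCM at 24 h, and 335, 287 and 319 CPM in LCM and 489.7, 504 and 789 CPM in HCM at 72 h. All HCM libraries exceeded the LCM libraries of the same time, with log2 fold changes of 0.92 ± 0.21 (adjusted p = 0.0024) at 24 h and 0.92 ± 0.21 (adjusted p = 0.00172) at 72 h. Unscaled by TMM, the fold changes were 0.78 and 0.94 for Rab11a and 0.62 and 0.57 for Rab25.

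Rab7 (chromosome 6, 87976083 to 88022295 of GRCm39) drives the fusion of late endosomes with lysosomes. Its WT libraries held 280.3, 293 and 297 CPM in LCM and 388, 376 and 342 CPM in HCM at 24 h, and 324, 323 and 355 CPM in LCM and 396, 403 and 444 CPM in HCM at 72 h. The change was small, with log2 fold changes of 0.35 ± 0.10 (adjusted p = 0.0151) at 24 h and 0.31 ± 0.10 (adjusted p = 0.0211) at 72 h. It passed only with TMM factors, since it was 0.06 at 24 h and -0.01 at 72 h without them. The 24 h call was lost without any 1 of WT 24 h HCM replicate 1, WT 24 h HCM replicate 2 and WT 24 h LCM replicate 1 (0.31 to 0.33, adjusted p up to 0.0706). The 72 h call was lost without any 1 of WT 72 h HCM replicate 3, WT 72 h LCM replicate 1 and WT 72 h LCM replicate 2 (0.26 to 0.29, adjusted p up to 0.111).

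Rab27b, a Rab of secretory granules and exosomes, was at 15.5, 10.2 and 11.3 CPM in LCM and 45.7, 29.2 and 27.9 CPM in HCM at 24 h, and 11.5, 13.8 and 16.5 CPM in LCM and 31.4, 38.1 and 16.2 CPM in HCM at 72 h in WT. Its log2 fold change was 1.47 ± 0.33 (adjusted p = 0.0021) at 24 h and 1.04 ± 0.32 (adjusted p = 0.0214) at 72 h, the latter with 1 low HCM library that fell within the LCM range. The 72 h call was lost without any 1 of WT 72 h HCM replicate 1, WT 72 h HCM replicate 2, WT 72 h LCM replicate 1 and WT 72 h LCM replicate 2 (0.77 to 1.03, adjusted p up to 0.124) and without TMM factors (0.78, adjusted p = 0.162). Rab44, a large member with calcium-binding motifs that is linked to granule release, had low levels of 0.740, 0.758 and 0.573 CPM in LCM and 3.19, 3.52 and 3.41 CPM in HCM at 24 h, and 2.11, 0.832 and 1.96 CPM in LCM and 3.84, 3.70 and 3.28 CPM in HCM at 72 h. It gained most of all members at 24 h, with log2 fold changes of 2.28 ± 0.26 (adjusted p = 2.34e-07) at 24 h and 1.16 ± 0.24 (adjusted p = 0.000691) at 72 h. A ribosomal protein pseudogene (Rpl35a.ps3) on the other strand overlaps Rab44 with a median of 800 counts against 66, and the strand setting of the counting is not stated, so that the values of Rab44 are uncertain. Rab3d of secretory granules passed at 24 h (0.99 ± 0.12, adjusted p = 7.26e-07), and Rab32 fell at 24 h (-0.92 ± 0.14, adjusted p = 2.63e-05).

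The upstream sequences of the recycling and lysosomal members that rose are given here, 5′ to 3′ on the minus strand on which all 3 genes lie, from the RefSeq promoter table (build GRCm38.p6) and placed at their single match in GRCm39. They cover the bases before the annotated start of each gene. Capitals mark a match to AACCNGTT, the motif of grainyhead-like factors, which are known regulators of epidermal genes.
Rab11a, chr9:64645055-64645288: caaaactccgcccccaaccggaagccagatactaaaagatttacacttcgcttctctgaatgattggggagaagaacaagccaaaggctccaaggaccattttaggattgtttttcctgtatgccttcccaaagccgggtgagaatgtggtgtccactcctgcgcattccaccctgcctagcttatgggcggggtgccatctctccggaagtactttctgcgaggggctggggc
Rab25, chr3:88455619-88455836: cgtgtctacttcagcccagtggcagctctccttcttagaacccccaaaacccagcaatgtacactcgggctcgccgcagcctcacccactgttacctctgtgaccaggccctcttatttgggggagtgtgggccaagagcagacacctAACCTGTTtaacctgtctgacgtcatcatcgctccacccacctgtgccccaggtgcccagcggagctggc
Rab7, chr6:88022296-88022502: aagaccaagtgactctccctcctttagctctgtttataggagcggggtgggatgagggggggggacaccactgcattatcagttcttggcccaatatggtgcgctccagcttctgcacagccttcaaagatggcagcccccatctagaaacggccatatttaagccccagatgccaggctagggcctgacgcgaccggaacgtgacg

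Windows around the start were searched on both strands for AACCNGTT, for the AP-1 letters TGANTCA, for the E-box CACGTG and for the KLF letters GGGNGTGG. Of 59 members, 48 had an entry in the table, with 60 entries in all. AACCNGTT was found in 1 of the 60, that of Rab25, and in 1.79% of 32851 windows of the table. TGANTCA was in 2 of 60 (6.75% of all), CACGTG in 5 of 60 (6.02% of all) and GGGNGTGG in 11 of 60 (15.9% of all). The 3 stretches printed above hold none of these other 3 motifs. A match of letters is a description of the sequence and not a binding site.

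**Figure D2:**
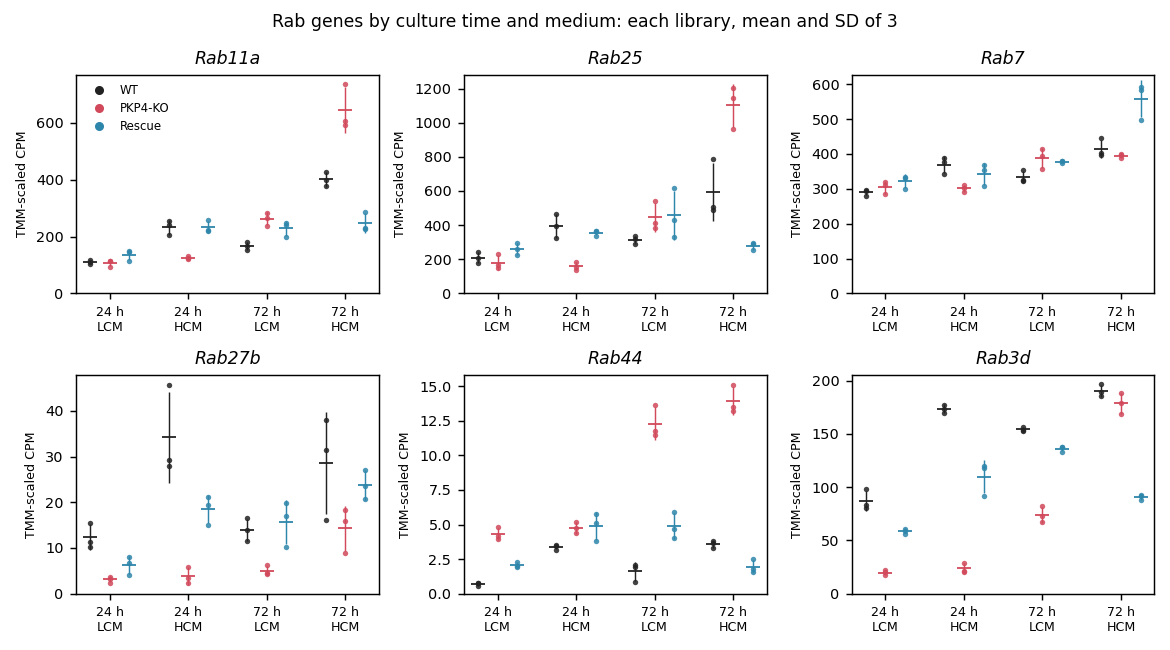
Level of 6 Rab genes in every library, in TMM-scaled CPM, by genotype and condition; each point is 1 library, horizontal marks are group means and vertical lines the SD of 3 libraries. Rab11a and Rab25 are higher in HCM than in LCM in all WT libraries at both times, and in PKP4-KO at 72 h. At 24 h in PKP4-KO the 2 media lie close together for Rab11a and overlap for Rab25.

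The comparison of PKP4-KO with WT asks which Rab genes differ when Pkp4 is disrupted. Rab17, Rab43, Rab27b, Rab4a, Rab31, Rab14, Rab18, Rab35, Rab2a and Rab5b were lower in PKP4-KO in all 4 conditions, and Rab29 was higher in all 4 with TMM scaling. These 10 lower and 1 higher genes, 11 of 50 or 22%, compare with 10.2% lower and 8.48% higher in all 4 among all tested genes, 18.6% together. At the other end, 13 Rab genes (26%) passed in no condition, against 26.2% of all tested genes. Rab11a, Rab25 and Rab38 passed in opposite directions in different conditions with TMM scaling, and none of these 3 did so without TMM factors. The 72 h LCM call of Rab38 was near the threshold.

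By condition, 7 Rab genes were higher and 16 lower in 24 h LCM, where 40.2% of all tested genes passed, 19.7% higher and 20.6% lower. In 24 h HCM, 6 were higher and 17 lower, beside 42.8% of all, 20.7% higher and 22.2% lower. In 72 h LCM, 10 were higher and 14 lower, beside 45.1% of all, 21.3% higher and 23.8% lower. In 72 h HCM, 11 were higher and 14 lower, beside 51.8% of all, 21.9% higher and 29.9% lower. The share of Rab genes that passed was thus near that of all genes. The median log2 fold change of the 50 was -0.37, -0.31, -0.09 and -0.16 in the same order, beside 0.00, -0.00, 0.02 and -0.07 over all tested genes. Without TMM factors the median of all genes moved to -0.23 in 24 h LCM, 0.06 in 24 h HCM, -0.35 in 72 h LCM and -0.83 in 72 h HCM. The Rab calls then were 2 higher and 19 lower in 24 h LCM, 4 and 23 in 72 h LCM, and 2 and 33 in 72 h HCM. Of the 11 genes, 9 passed in all 4 conditions in that scaling too, without Rab29 and Rab2a.

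**Figure D3:**
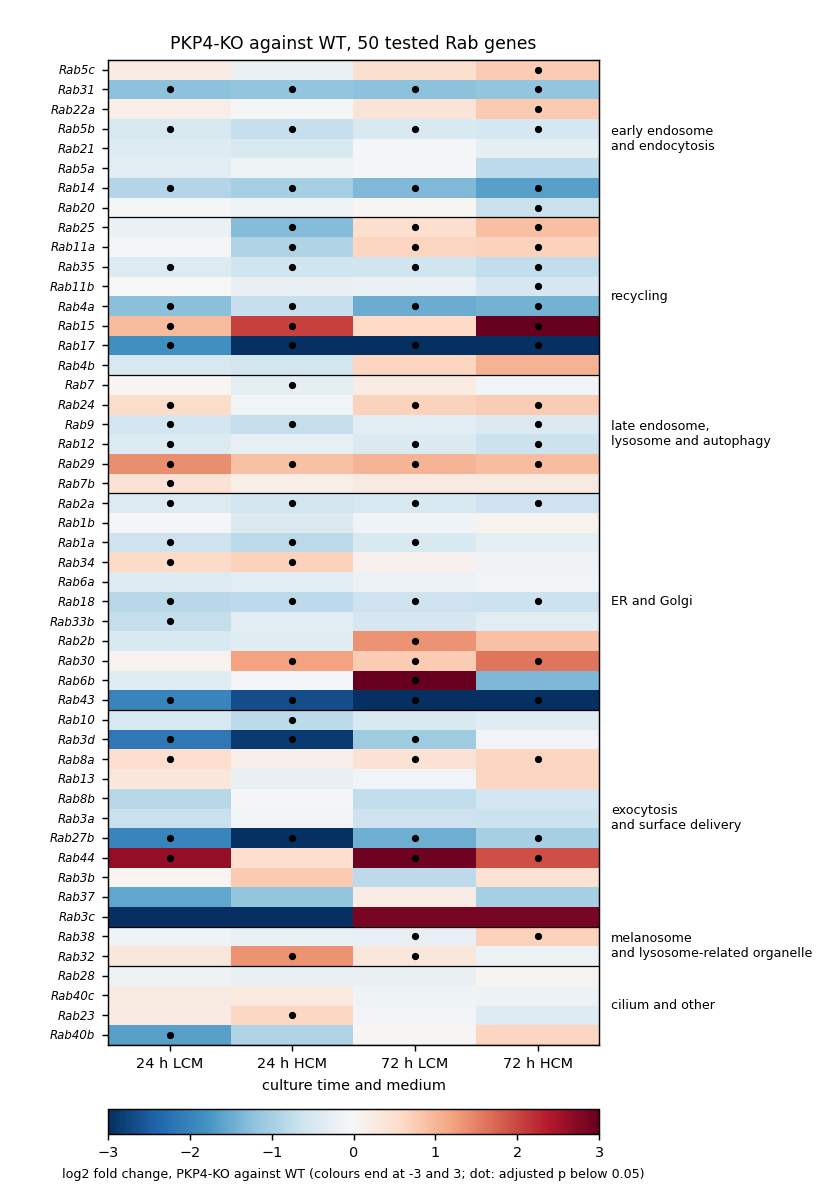
Heat map of the log2 fold change in PKP4-KO against WT for the 50 tested Rab genes, grouped by role, in the 4 culture conditions with TMM scaling; colours end at 3 in either direction and a dot marks an adjusted p below 0.05. Rab17, Rab43, Rab27b, Rab4a, Rab31 and Rab14 are low in all 4 columns, while Rab11a and Rab25 change sign between 24 h HCM and 72 h HCM, a change of sign that is lost for Rab11a without TMM factors (-0.08 in 72 h HCM).

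Of the 8 early endosome members, Rab31, Rab14 and Rab5b were lower in PKP4-KO in all 4 conditions. Rab31 (Rab22b; chromosome 17, 65958723 to 66079839 of GRCm39) sorts cargo between the Golgi and endosomes. In WT it was at 105, 127 and 120.3 CPM in 24 h LCM, 112, 91.7 and 100.2 in 24 h HCM, 135, 137 and 144 in 72 h LCM and 159, 179 and 149.5 in 72 h HCM. In PKP4-KO it was at 45.0, 54.7 and 49.7 CPM in 24 h LCM, 46.8, 47.5 and 39.7 in 24 h HCM, 55.6, 59.7 and 63.1 in 72 h LCM and 73.9, 70.2 and 70.3 in 72 h HCM. No PKP4-KO library reached the lowest WT library of its condition. The log2 fold changes were nearly equal, at -1.24 ± 0.13 (adjusted p = 6.91e-09) in 24 h LCM, -1.18 ± 0.13 (adjusted p = 9.79e-09) in 24 h HCM, -1.22 ± 0.13 (adjusted p = 7.41e-09) in 72 h LCM and -1.18 ± 0.13 (adjusted p = 1.27e-08) in 72 h HCM.

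Rab14 (chromosome 2, 35068752 to 35091220 of GRCm39) connects the Golgi with early and recycling endosomes. WT libraries held 114, 97.3 and 103 CPM in 24 h LCM, 147, 97.1 and 121 in 24 h HCM, 106, 127 and 126 in 72 h LCM and 116, 121 and 81.9 in 72 h HCM. PKP4-KO libraries held 47.6, 64.0 and 60.6 CPM in 24 h LCM, 59.7, 71.0 and 51.6 in 24 h HCM, 47.2, 44.0 and 52.7 in 72 h LCM and 31.0, 39.2 and 33.4 in 72 h HCM. The genotypes did not overlap in any condition. The fall was -0.87 ± 0.18 (adjusted p = 0.000259) in 24 h LCM, -1.0 ± 0.18 (adjusted p = 3.29e-05) in 24 h HCM, -1.32 ± 0.18 (adjusted p = 8e-07) in 72 h LCM and -1.62 ± 0.18 (adjusted p = 2.76e-08) in 72 h HCM on the log2 scale.

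Rab5b, a paralog of Rab5a on early endosomes, changed less. WT libraries lay at 45.9, 47.8 and 44.1 CPM in 24 h LCM, 53.3, 55.3 and 46.3 in 24 h HCM, 63.6, 65.1 and 68.6 in 72 h LCM and 60.9, 56.6 and 79.7 in 72 h HCM. PKP4-KO libraries lay at 32.9, 34.9 and 31.1 CPM in 24 h LCM, 31.8, 33.6 and 30.3 in 24 h HCM, 34.5, 55.2 and 54.2 in 72 h LCM and 49.4, 38.2 and 49.1 in 72 h HCM. The genotypes did not overlap. Its log2 fold changes were -0.48 ± 0.14 (adjusted p = 0.00922) in 24 h LCM, -0.69 ± 0.14 (adjusted p = 0.000253) in 24 h HCM, -0.46 ± 0.14 (adjusted p = 0.0113) in 72 h LCM and -0.53 ± 0.15 (adjusted p = 0.00349) in 72 h HCM. The 72 h LCM call was lost without PKP4-KO 72 h LCM replicate 1 (-0.27, adjusted p = 0.11). Rab5c, the most abundant Rab5, passed only in 72 h HCM, where it was higher (0.77 ± 0.22, adjusted p = 0.00507), and Rab22a likewise (0.79 ± 0.17, adjusted p = 0.000397). Rab20, an endosomal and phagosomal Rab, was lower there (-0.67 ± 0.20, adjusted p = 0.00641). Rab5a and Rab21 did not pass in any condition. Unscaled by TMM, the 72 h HCM values of Rab5c and Rab22a were 0.06 and 0.00, and neither passed.

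Of the 8 recycling members, Rab17, Rab4a and Rab35 were lower in PKP4-KO in all 4 conditions. Rab17 (chromosome 1, 90885855 to 90897383 of GRCm39) is an epithelial Rab of apical recycling and transcytosis. WT libraries had 14, 24 and 17 counts in 24 h LCM, 38, 30 and 47 in 24 h HCM, 46, 25 and 41 in 72 h LCM and 93, 96 and 85 in 72 h HCM. In PKP4-KO the counts were 6, 2 and 7 counts in 24 h LCM, 2, 1 and 0 in 24 h HCM, 1, 0 and 5 in 72 h LCM and 0, 2 and 1 in 72 h HCM. Rab17 was thus close to the limit of detection in PKP4-KO, and its level relative to WT was 27.2% (95% interval 14.3 to 48.8) in 24 h LCM, 2.35% (95% interval 0.477 to 7.03) in 24 h HCM, 7.45% (95% interval 2.68 to 16.7) in 72 h LCM and 2.03% (95% interval 0.416 to 6.0) in 72 h HCM, from summed counts over the effective library sizes with exact (Clopper-Pearson) intervals for counting error only. The adjusted p was 0.0104 in 24 h LCM, 3.33e-07 in 24 h HCM, 1.75e-05 in 72 h LCM and 1.44e-07 in 72 h HCM. The 24 h LCM call was lost without PKP4-KO 24 h LCM replicate 2 (-1.42, adjusted p = 0.0697) and WT 24 h LCM replicate 2 (-1.53, adjusted p = 0.0521).

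Rab4a (chromosome 8, 124532545 to 124568842 of GRCm39) serves fast recycling from early endosomes. In WT it was at 2.64, 3.38 and 3.23 CPM in 24 h LCM, 2.16, 2.59 and 3.21 in 24 h HCM, 3.56, 2.65 and 3.50 in 72 h LCM and 2.36, 1.53 and 3.08 in 72 h HCM. In PKP4-KO it was at 1.76, 0.954 and 1.17 CPM in 24 h LCM, 1.30, 1.67 and 1.99 in 24 h HCM, 1.28, 1.17 and 1.0 in 72 h LCM and 1.02, 1.02 and 0.568 in 72 h HCM. The genotypes were separated in every condition. The log2 fold changes were -1.26 ± 0.26 (adjusted p = 0.00033) in 24 h LCM, -0.69 ± 0.26 (adjusted p = 0.0331) in 24 h HCM, -1.49 ± 0.27 (adjusted p = 4.98e-05) in 72 h LCM and -1.41 ± 0.31 (adjusted p = 0.000435) in 72 h HCM. The 24 h HCM call was lost without any 1 of PKP4-KO 24 h HCM replicate 1 (-0.54, adjusted p = 0.152), PKP4-KO 24 h HCM replicate 2 (-0.71, adjusted p = 0.0678), WT 24 h HCM replicate 2 (-0.71, adjusted p = 0.0522) and WT 24 h HCM replicate 3 (-0.52, adjusted p = 0.158). Ccsap overlaps Rab4a on the other strand with a median of 59.5 counts against 54, so that the reads of both may not be separated.

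Rab35 acts in fast recycling of cadherins and integrins. It was at 101, 112 and 111 CPM in 24 h LCM, 107, 117 and 115 in 24 h HCM, 108, 106 and 106 in 72 h LCM and 106, 109.8 and 144 in 72 h HCM in WT. PKP4-KO libraries held 86.0, 83.7 and 74.7 CPM in 24 h LCM, 68.1, 77.9 and 78.3 in 24 h HCM, 60.6, 76.2 and 75.2 in 72 h LCM and 68.6, 79.7 and 69.4 in 72 h HCM. The genotypes did not overlap. Its log2 fold changes were modest, at -0.41 ± 0.12 (adjusted p = 0.00732) in 24 h LCM, -0.60 ± 0.12 (adjusted p = 0.000158) in 24 h HCM, -0.59 ± 0.12 (adjusted p = 0.000231) in 72 h LCM and -0.73 ± 0.12 (adjusted p = 1.43e-05) in 72 h HCM. Rab11b, the broadly expressed paralog of Rab11a, was lower in 1 condition, 72 h HCM (-0.51 ± 0.12, adjusted p = 0.000736). Rab4b passed in no condition. Rab15, which acts in endocytic recycling, was higher in 24 h LCM, 24 h HCM and 72 h HCM, with 3, 6 and 4 counts in WT and 24, 15 and 29 in PKP4-KO in 72 h HCM. Its reads are uncertain, since Fntb on the other strand had a median of 384.5 counts against 47.5 for Rab15. For Rab15, the call in 24 h LCM was lost without any 1 of PKP4-KO 24 h LCM replicate 1 and WT 24 h LCM replicates 1, 2 and 3 (0.82 to 0.96, adjusted p up to 0.0926). Rab15 did not pass there without TMM factors (0.70, adjusted p = 0.116) either.

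Rab11a and Rab25 differed from WT in opposite directions in 24 h HCM and 72 h HCM. In 24 h HCM both were lower in PKP4-KO, Rab11a at 121, 131 and 123 CPM against 241, 255 and 204 CPM in WT (-0.90 ± 0.13, adjusted p = 2.17e-06) and Rab25 at 157, 137 and 184 CPM against 327, 465 and 392 CPM (-1.31 ± 0.21, adjusted p = 8.43e-06). In 72 h HCM both were higher with TMM scaling, Rab11a at 605, 738 and 593 CPM against 398, 378 and 428 CPM (0.69 ± 0.13, adjusted p = 9.25e-05) and Rab25 at 1144, 1201 and 962 CPM against 489.7, 504 and 789 CPM (0.89 ± 0.21, adjusted p = 0.000811). Neither pair of groups overlapped. Without TMM factors the 72 h HCM difference of Rab11a turned to -0.08 and that of Rab25 shrank to 0.16, which is 0.75 and 1.0 above the median of all genes in that scaling. The summed level of suprabasal markers was also raised in PKP4-KO 72 h HCM, though Ivl, Lor and Dsg1a were lower, as given above. The part of these markers in the Rab11a and Rab25 values was not tested. In 72 h LCM Rab11a was higher (0.65 ± 0.13, adjusted p = 0.000227, and 0.26 with adjusted p = 0.151 without TMM factors), and Rab25 was just past the threshold (0.51 ± 0.21, adjusted p = 0.0481). The latter call was lost without TMM factors (0.10) and without any 1 of PKP4-KO 72 h LCM replicate 1, PKP4-KO 72 h LCM replicate 2, WT 72 h LCM replicate 1, WT 72 h LCM replicate 2 and WT 72 h LCM replicate 3 (0.34 to 0.56), and with the replicate number as a block (0.50, adjusted p = 0.0561). In 24 h LCM neither passed, at -0.04 ± 0.13 (adjusted p = 0.845) for Rab11a and -0.20 ± 0.21 (adjusted p = 0.452) for Rab25.

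Among the late endosome and lysosome members, Rab29 (Rab7L1; chromosome 1, 131794932 to 131802006 of GRCm39), which acts on the Golgi and on stressed lysosomes, was the only Rab gene higher in PKP4-KO in all 4 conditions with TMM scaling. It was at 4.12, 5.19 and 3.44 CPM in 24 h LCM, 4.64, 6.25 and 7.54 in 24 h HCM, 8.98, 7.41 and 5.96 in 72 h LCM and 7.26, 7.57 and 9.23 in 72 h HCM in WT. PKP4-KO libraries held 11.7, 11.5 and 10.1 CPM in 24 h LCM, 11.2, 11.2 and 11.4 in 24 h HCM, 15.7, 14.5 and 14.8 in 72 h LCM and 14.7, 16.1 and 14.4 in 72 h HCM. No library of the genotypes overlapped in any condition. The log2 fold changes were 1.39 ± 0.19 (adjusted p = 6.87e-07) in 24 h LCM, 0.87 ± 0.18 (adjusted p = 0.000252) in 24 h HCM, 1.01 ± 0.18 (adjusted p = 4.42e-05) in 72 h LCM and 0.92 ± 0.18 (adjusted p = 0.000161) in 72 h HCM. Its 72 h HCM value without TMM factors was 0.16 (adjusted p = 0.452), against a median of all genes of -0.83. Rab7 was slightly lower in 1 condition, 24 h HCM (-0.29 ± 0.10, adjusted p = 0.0169). Rab9, which returns receptors from late endosomes to the Golgi, was lower in 24 h LCM, 24 h HCM and 72 h HCM (-0.57 ± 0.15, adjusted p = 0.00285, -0.72 ± 0.15, adjusted p = 0.000217 and -0.43 ± 0.15, adjusted p = 0.0177). Rab7b, a late Rab of the route to the Golgi, was higher in 1 condition, 24 h LCM (0.43 ± 0.15, adjusted p = 0.0251). Rab24, a Rab of autophagy, was higher in 24 h LCM, 72 h LCM and 72 h HCM (0.55 ± 0.19, adjusted p = 0.0245, 0.68 ± 0.19, adjusted p = 0.0052 and 0.76 ± 0.19, adjusted p = 0.00183). Rab12, a Rab of lysosomal sorting and autophagy, was lower in 72 h LCM (-0.43 ± 0.13, adjusted p = 0.00816), 72 h HCM (-0.64 ± 0.13, adjusted p = 0.000234) and 24 h LCM (-0.41 ± 0.13, adjusted p = 0.0133), the last call being lost without any 1 of PKP4-KO 24 h LCM replicate 1 (-0.38, adjusted p = 0.0508) and PKP4-KO 24 h LCM replicate 3 (-0.35, adjusted p = 0.0606). For Rab7, the call in 24 h HCM was lost without any 1 of PKP4-KO 24 h HCM replicate 1 and WT 24 h HCM replicate 1 (-0.27 to -0.25, adjusted p up to 0.0729). Rab7 did not pass there without TMM factors (-0.23, adjusted p = 0.241) either. For Rab9, the call in 72 h HCM was lost without any 1 of PKP4-KO 72 h HCM replicates 1 and 3 and WT 72 h HCM replicate 3 (-0.41 to -0.23, adjusted p up to 0.181). For Rab7b, the call in 24 h LCM was lost without any 1 of PKP4-KO 24 h LCM replicate 1 and WT 24 h LCM replicates 1 and 2 (0.32 to 0.38, adjusted p up to 0.153). Rab7b did not pass there without TMM factors (0.19, adjusted p = 0.351) either. For Rab24, the call in 24 h LCM was lost without any 1 of PKP4-KO 24 h LCM replicates 1 and 2 and WT 24 h LCM replicates 1 and 2 (0.46 to 0.55, adjusted p up to 0.109). Rab24 did not pass there without TMM factors (0.31, adjusted p = 0.177) either. In 72 h LCM its call was lost without PKP4-KO 72 h LCM replicate 1 (0.41, adjusted p = 0.0893). Rab24 did not pass there without TMM factors (0.31, adjusted p = 0.149) either. In 72 h HCM the call of Rab24 was lost without TMM factors (0.01, adjusted p = 0.978).

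Of the 11 ER and Golgi members that passed the filter, Rab2a, Rab18 and Rab43 were lower in all 4 conditions. Rab18 works on lipid droplets and the ER. Its WT libraries held 121, 100.2 and 116 CPM in 24 h LCM, 168, 135 and 121 in 24 h HCM, 114, 119 and 139.7 in 72 h LCM and 138, 137 and 108 in 72 h HCM. The PKP4-KO values were 54.2, 69.7 and 64.1 CPM in 24 h LCM, 79.6, 97.4 and 69.1 in 24 h HCM, 78.0, 73.0 and 89.3 in 72 h LCM and 76.6, 83.7 and 85.9 in 72 h HCM. No PKP4-KO library reached the WT range. The log2 fold changes were -0.84 ± 0.16 (adjusted p = 0.000113) in 24 h LCM, -0.78 ± 0.16 (adjusted p = 0.000203) in 24 h HCM, -0.63 ± 0.16 (adjusted p = 0.00209) in 72 h LCM and -0.64 ± 0.16 (adjusted p = 0.00157) in 72 h HCM.

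Rab2a, needed for traffic from the ER to the Golgi and to lysosomes, was among the most abundant members. It was at 208, 196 and 219.7 CPM in 24 h LCM, 285, 230.3 and 253 in 24 h HCM, 218, 223 and 251 in 72 h LCM and 281, 277 and 248 in 72 h HCM in WT. PKP4-KO libraries were at 144, 174 and 153 CPM in 24 h LCM, 181, 192 and 155 in 24 h HCM, 189.8, 138 and 167 in 72 h LCM and 150.0, 204 and 167 in 72 h HCM. The genotypes did not overlap. Its changes were among the smallest of the 11, at -0.41 ± 0.14 (adjusted p = 0.0197) in 24 h LCM, -0.54 ± 0.14 (adjusted p = 0.00207) in 24 h HCM, -0.49 ± 0.14 (adjusted p = 0.00541) in 72 h LCM and -0.63 ± 0.14 (adjusted p = 0.000439) in 72 h HCM. The 24 h LCM call was lost without any 1 of PKP4-KO 24 h LCM replicate 1 (-0.35, adjusted p = 0.0933), PKP4-KO 24 h LCM replicate 3 (-0.39, adjusted p = 0.0588) and WT 24 h LCM replicate 3 (-0.37, adjusted p = 0.0713). The 72 h LCM call was lost without PKP4-KO 72 h LCM replicate 2 (-0.37, adjusted p = 0.0516). Rab1a, which carries vesicles from the ER, was lower in 24 h LCM, 24 h HCM and 72 h LCM (-0.62 ± 0.12, adjusted p = 0.000161, -0.81 ± 0.12, adjusted p = 2.89e-06 and -0.45 ± 0.12, adjusted p = 0.0036), and at -0.26 ± 0.12 (adjusted p = 0.074) in 72 h HCM. For Rab2a, the call in 24 h HCM was lost without TMM factors (-0.48, adjusted p = 0.0855).

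Rab43, a Golgi Rab, was scarce. WT libraries had 29, 28 and 25 counts in 24 h LCM, 17, 6 and 14 in 24 h HCM, 10, 35 and 45 in 72 h LCM and 22, 15 and 1 in 72 h HCM. PKP4-KO libraries had 0, 10 and 12 counts in 24 h LCM, 4, 1 and 1 in 24 h HCM, 1, 2 and 0 in 72 h LCM and 0, 1 and 0 in 72 h HCM. The genotypes overlapped in 72 h HCM, where 1 WT library had 1 count, and in no other condition. Relative to WT the level was 26.7% (95% interval 15.9 to 43.2) in 24 h LCM, 14.6% (95% interval 5.03 to 34.8) in 24 h HCM, 4.63% (95% interval 0.938 to 14.0) in 72 h LCM and 4.88% (95% interval 0.121 to 28.9) in 72 h HCM. The adjusted p was 0.0374 in 24 h LCM, 0.0167 in 24 h HCM, 0.00082 in 72 h LCM and 0.00793 in 72 h HCM. The 24 h LCM call was lost without any 1 of PKP4-KO 24 h LCM replicate 1, PKP4-KO 24 h LCM replicate 2, WT 24 h LCM replicate 1, WT 24 h LCM replicate 2 and WT 24 h LCM replicate 3 (adjusted p up to 0.137). The 24 h HCM call was lost without any 1 of PKP4-KO 24 h HCM replicate 2 and WT 24 h HCM replicate 1 (adjusted p up to 0.0817).

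Rab34, which sits at the Golgi and takes part in cilium formation, was higher at 24 h in HCM (0.69 ± 0.12, adjusted p = 2.96e-05) and LCM (0.58 ± 0.12, adjusted p = 0.000291). Rab30 was higher in 24 h HCM, 72 h HCM and 72 h LCM, with log2 fold changes of 1.20 ± 0.32 (adjusted p = 0.00271) at 24 h and 1.61 ± 0.34 (adjusted p = 0.000326) at 72 h in HCM and 0.76 ± 0.31 (adjusted p = 0.0437) in 72 h LCM. The last call was lost without any 1 of PKP4-KO 72 h LCM replicate 1, PKP4-KO 72 h LCM replicate 3, WT 72 h LCM replicate 1, WT 72 h LCM replicate 2 and WT 72 h LCM replicate 3, 0.59 to 0.87 on the log2 scale. Rab6b, the Rab6 of neurons, had 9, 14 and 11 counts in WT and 88, 65 and 115 in PKP4-KO in 72 h LCM (adjusted p = 5.68e-05), and 17, 23 and 12 against 4, 3 and 4 in 72 h HCM (adjusted p = 0.123). In LCM all PKP4-KO libraries were above the WT libraries, and in HCM all were below them. The low-count members Rab33b (24 h LCM, -0.71) and Rab2b (72 h LCM, 1.35) passed in 1 condition each, and Rab1b and Rab6a in none. For Rab34, the call in 24 h LCM was lost without TMM factors (0.36, adjusted p = 0.0676). For Rab33b, the call in 24 h LCM was lost without any 1 of PKP4-KO 24 h LCM replicate 2 and WT 24 h LCM replicate 1 (-0.63 to -0.60, adjusted p up to 0.0882). Both 72 h calls of Rab30 were lost without TMM factors, at 0.79 (adjusted p = 0.096) in HCM and 0.39 (adjusted p = 0.4) in LCM.

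Among the 11 exocytosis members that passed the filter, Rab27b was lower in PKP4-KO in all 4 conditions. WT libraries held 15.5, 10.2 and 11.3 CPM in 24 h LCM, 45.7, 29.2 and 27.9 in 24 h HCM, 11.5, 13.8 and 16.5 in 72 h LCM and 31.4, 38.1 and 16.2 in 72 h HCM. In PKP4-KO the values were 2.40, 3.71 and 3.23 CPM in 24 h LCM, 3.40, 5.94 and 2.29 in 24 h HCM, 6.28, 4.53 and 4.35 in 72 h LCM and 18.3, 15.8 and 8.86 in 72 h HCM. The libraries of both genotypes overlapped in 72 h HCM and in no other condition. The log2 fold changes were -1.98 ± 0.35 (adjusted p = 4.29e-05) in 24 h LCM, -3.12 ± 0.35 (adjusted p = 2.58e-08) in 24 h HCM, -1.46 ± 0.34 (adjusted p = 0.000896) in 72 h LCM and -1.0 ± 0.33 (adjusted p = 0.0132) in 72 h HCM. The 72 h HCM call was lost without any 1 of PKP4-KO 72 h HCM replicate 3 (-0.75, adjusted p = 0.0908) and WT 72 h HCM replicate 2 (-0.75, adjusted p = 0.0959).

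With TMM scaling, Rab3d was much lower in PKP4-KO at 24 h and not at 72 h in HCM. Without TMM factors it passed as lower in all 4 conditions, 72 h HCM included. In 24 h HCM it was at 178, 169 and 174 CPM in WT and 29.0, 21.5 and 20.4 CPM in PKP4-KO (-2.87 ± 0.13, adjusted p = 2.39e-16). In 24 h LCM the values were 80.8, 98.1 and 82.8 and 22.3, 20.3 and 17.1 CPM (-2.13 ± 0.13, adjusted p = 9.58e-14). In 72 h LCM the log2 fold change was -1.06 ± 0.12 (adjusted p = 4.44e-08), and in 72 h HCM it was -0.09 ± 0.12 (adjusted p = 0.533), with 185, 189.7 and 197 CPM in WT and 179, 189 and 169 CPM in PKP4-KO. Rab44 was higher in PKP4-KO in LCM at both times and in 72 h HCM, at 2.11, 0.832 and 1.96 CPM in WT and 11.8, 13.7 and 11.4 CPM in PKP4-KO in 72 h LCM (2.92 ± 0.24, adjusted p = 8.66e-11). In 24 h HCM its difference was 0.50 ± 0.23 (adjusted p = 0.077).

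Rab8a, which delivers cargo to the plasma membrane and the cilium, was higher in 24 h LCM (0.51 ± 0.16, adjusted p = 0.0115), 72 h LCM (0.42 ± 0.16, adjusted p = 0.0328) and 72 h HCM (0.64 ± 0.16, adjusted p = 0.00149), the last turning to -0.08 without TMM factors. Rab10, a Rab of basolateral delivery, was lower in 1 condition, 24 h HCM (-0.79 ± 0.22, adjusted p = 0.00453). Rab13, known from tight junctions, Rab8b, Rab3a, Rab3b, Rab3c and Rab37 passed in no condition. For Rab8a, the call in 24 h LCM was lost without any 1 of PKP4-KO 24 h LCM replicate 1 and WT 24 h LCM replicate 1 (0.33 to 0.44, adjusted p up to 0.13). Rab8a did not pass there without TMM factors (0.26, adjusted p = 0.0556) either. At 72 h in LCM its call was lost without any 1 of PKP4-KO 72 h LCM replicate 2 and WT 72 h LCM replicates 2 and 3 (0.29 to 0.45, adjusted p up to 0.195). Rab8a did not pass there without TMM factors (0.03, adjusted p = 0.852) either. For Rab10, the call in 24 h HCM was lost without TMM factors (-0.74, adjusted p = 0.0666).

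Rab32 and Rab38, paralogs known from melanosomes and lysosome-related organelles, were both well expressed. Melanocyte markers were near 0, with 12 genes summing to at most 7.18 CPM in any library and 6 to 10 of them at or under 3 counts in each group, while Rab38 averaged 121 CPM. Rab32 was higher in PKP4-KO in 24 h HCM, at 77.5, 97.4 and 76.5 CPM against 32.9, 30.2 and 35.6 CPM in WT (1.35 ± 0.14, adjusted p = 7.71e-09). In 72 h LCM Rab32 was just past the threshold (0.34 ± 0.14, adjusted p = 0.0498), and it was at -0.03 there without TMM factors. That call was lost without any 1 of PKP4-KO 72 h LCM replicate 1, PKP4-KO 72 h LCM replicate 3, WT 72 h LCM replicate 1, WT 72 h LCM replicate 2 and WT 72 h LCM replicate 3, 0.23 to 0.39 on the log2 scale. Rab38 was higher in 72 h HCM (0.68 ± 0.10, adjusted p = 2.26e-06, but -0.09 without TMM factors) and lower in 72 h LCM (-0.24 ± 0.10, adjusted p = 0.0492). Of the remaining members, Rab23 of the cilium was higher in 24 h HCM (0.61 ± 0.19, adjusted p = 0.0112, lost without any 1 of PKP4-KO 24 h HCM replicate 2, 0.51, adjusted p = 0.0644, WT 24 h HCM replicate 2, 0.50, adjusted p = 0.0654 and WT 24 h HCM replicate 3, 0.46, adjusted p = 0.0876), Rab40b was lower in 24 h LCM (-1.62 ± 0.46, adjusted p = 0.00574), and Rab28 and Rab40c passed in none. For Rab38, the call in 72 h LCM was lost without any 1 of PKP4-KO 72 h LCM replicates 1 and 2 and WT 72 h LCM replicates 1 and 3 (-0.25 to -0.18, adjusted p up to 0.213). Rab38 did not pass there with the replicate number as a block (-0.24, adjusted p = 0.0585) either. For Rab23, the call in 24 h HCM was lost without TMM factors (0.65, adjusted p = 0.07).

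**Figure D4:**
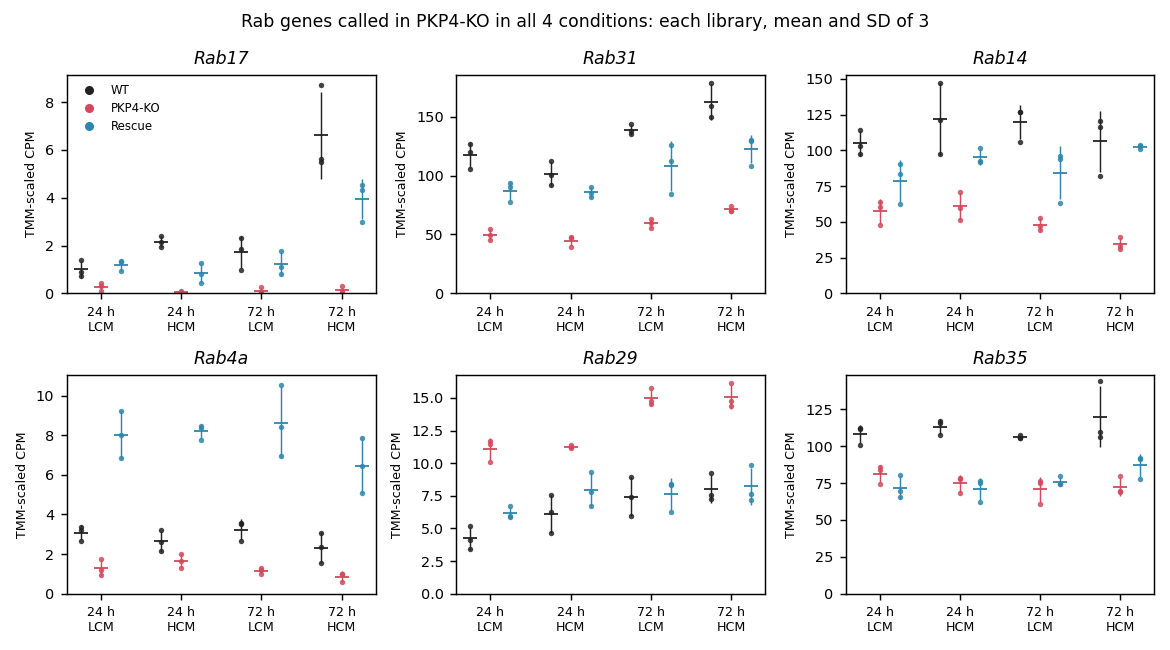
Level of 6 Rab genes that passed in PKP4-KO against WT in all 4 culture conditions, in TMM-scaled CPM per library; horizontal marks are group means and vertical lines the SD of 3 libraries. Rab17, Rab31, Rab14, Rab4a and Rab35 are lower and Rab29 is higher in PKP4-KO, the last not past the threshold in 72 h HCM without TMM factors, and Rab4a in Rescue lies above WT in every condition.

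The response to calcium itself differed between genotypes, as tested with the interaction of medium and genotype. At 24 h, 2 Rab genes rose and 0 fell with HCM in PKP4-KO, where 2.83% of all tested genes passed, and these were Rab7b (0.69 ± 0.15, adjusted p = 0.00768) and Rab40b (1.86 ± 0.45, adjusted p = 0.0185). Only 1 passed without any 1 of PKP4-KO 24 h HCM replicates 1 and 2 and PKP4-KO 24 h LCM replicates 1, 2 and 3. The interaction passed for Rab17, Rab44, Rab25, Rab11a and Rab3d, which gained less from calcium in PKP4-KO than in WT, and for Rab32, which fell in WT, 1 higher and 5 lower in all beside 4.02% of all tested genes. Rab44 differed by -2.12 ± 0.34 (adjusted p = 0.000259), Rab11a by -0.86 ± 0.19 (adjusted p = 0.00582) and Rab25 by -1.10 ± 0.29 (adjusted p = 0.0269) on the log2 scale. In PKP4-KO, Rab11a was at 115, 114 and 94.1 CPM in LCM and 121, 131 and 123 CPM in HCM. The HCM libraries lay just above the LCM libraries there, and the change did not pass (0.22 ± 0.13, adjusted p = 0.491), while in WT given above the gap was wider. The difference for Rab25 was lost without any 1 of PKP4-KO 24 h HCM replicate 1, PKP4-KO 24 h HCM replicate 2, PKP4-KO 24 h LCM replicate 1, WT 24 h HCM replicate 2, WT 24 h LCM replicate 1 and WT 24 h LCM replicate 3 (-1.11 to -0.90, adjusted p up to 0.106). Without TMM factors 3 of these interactions passed, 1 higher and 2 lower, with the median of all genes at 0.28. For Rab17, the interaction was lost without any 1 of PKP4-KO 24 h HCM replicates 2 and 3, PKP4-KO 24 h LCM replicates 1 and 3, WT 24 h HCM replicates 2 and 3 and WT 24 h LCM replicates 1 and 3 (-3.42 to -3.05, adjusted p up to 0.106). The interactions of Rab17, Rab11a and Rab3d were the ones lost without TMM factors, at -3.11, -0.55 and -0.43 (adjusted p = 0.0756, 0.192 and 0.386). For Rab40b, the rise in PKP4-KO was lost without any 1 of PKP4-KO 24 h HCM replicates 1 and 2 and PKP4-KO 24 h LCM replicates 1 and 3 (1.53 to 1.87, adjusted p up to 0.143). For Rab7b, the rise in PKP4-KO was lost without PKP4-KO 24 h LCM replicate 2 (0.60, adjusted p = 0.0735).

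At 72 h the calcium response of PKP4-KO was wide. There 8 Rab genes rose and 7 fell, and 32.6% of all tested genes passed, but without TMM factors 3 rose and 26 fell with the median of all genes at -0.77. Without PKP4-KO 72 h HCM replicate 3 the count was 9 in place of 15. Rab11a, Rab25 and Rab27b rose by 1.30 ± 0.13 (adjusted p = 2.45e-08), 1.31 ± 0.21 (adjusted p = 2.33e-05) and 1.5 ± 0.35 (adjusted p = 0.00141). The interaction with genotype passed for 4 Rab genes, 3 higher and 1 lower, beside 5.74% of all tested genes (1 higher and 5 lower without TMM factors, with the median of all genes at -0.48). These were Rab38 (0.93 ± 0.14, adjusted p = 8.67e-05), Rab3d (0.97 ± 0.17, adjusted p = 0.000491), Rab15 (2.61 ± 0.54, adjusted p = 0.00243) and Rab6b, whose counts are given above. In Rescue, 8 Rab genes rose and 4 fell with HCM at 24 h (12% of all tested genes passed), Rab11a by 0.79 ± 0.13 (adjusted p = 9.41e-05) and Rab27b by 1.55 ± 0.33 (adjusted p = 0.00172). At 72 h 7 rose and 5 fell (24.9%), Rab25 among those lower in HCM (-0.72 ± 0.21, adjusted p = 0.0119), and 7 passed without replicate 2 of either Rescue 72 h group. For Rab25, the fall in Rescue was lost without any 1 of Rescue 72 h HCM replicate 2 and Rescue 72 h LCM replicate 2 (-0.65 to -0.45, adjusted p up to 0.149). For Rab27b, the rise in PKP4-KO was lost without TMM factors (0.80, adjusted p = 0.116). The interactions of Rab38 and Rab3d were lost without TMM factors, at 0.53 and 0.60 (adjusted p = 0.129 and 0.0792).

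Whether the difference between PKP4-KO and WT changed with culture time was tested after seeing the data. In HCM it passed for 14 Rab genes, 11 higher and 3 lower, beside 26.6% of all tested genes. Rab3d (2.78 ± 0.17, adjusted p = 1.33e-12), Rab25 (2.20 ± 0.30, adjusted p = 1.8e-06), Rab27b (2.12 ± 0.47, adjusted p = 0.00121) and Rab11a (1.58 ± 0.19, adjusted p = 2.01e-07) shifted most upward, while Rab32 (-1.52 ± 0.20, adjusted p = 1.5e-06) shifted downward. In the scaling without TMM factors the median of all genes was -0.90 and the calls became 3 higher and 18 lower. In LCM 4 Rab genes passed, 4 higher and 0 lower, beside 5.25% of all tested genes, Rab3d (1.07 ± 0.17, adjusted p = 0.000133), Rab11a (0.68 ± 0.19, adjusted p = 0.0259), Rab2b and Rab6b. The LCM count was 2 without any 1 of PKP4-KO 72 h LCM replicate 2, PKP4-KO 24 h LCM replicate 3 and WT 24 h LCM replicate 3. The libraries of each genotype enter both these differences and the comparisons within each time. For Rab11a, the LCM difference was lost without any 1 of PKP4-KO 72 h LCM replicates 2 and 3, PKP4-KO 24 h LCM replicate 3, WT 72 h LCM replicate 2 and WT 24 h LCM replicates 2 and 3 (0.59 to 0.67, adjusted p up to 0.0964). Rab11a did not pass there without TMM factors (0.54, adjusted p = 0.158) either. For Rab2b, the LCM difference was lost without any 1 of PKP4-KO 72 h LCM replicate 2, PKP4-KO 24 h LCM replicates 1 and 3, WT 72 h LCM replicates 1 and 3 and WT 24 h LCM replicates 1 and 3 (1.57 to 1.86, adjusted p up to 0.0779). Rab2b did not pass there without TMM factors (1.62, adjusted p = 0.104) either. For Rab27b, the HCM difference was lost without TMM factors (1.22, adjusted p = 0.0858).

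Rescue libraries were compared with PKP4-KO and with WT. In Rescue against PKP4-KO, 5 Rab genes were higher in all 4 conditions, namely Rab17, Rab4a, Rab15, Rab31 and Rab14, and 2 were lower, Rab29 and Rab7b. These 7 are 14% of the 50 tested, against 15.1% of all tested genes. The counts higher and lower were 13 and 7 in 24 h LCM (33.7% of all tested genes passed), 16 and 4 in 24 h HCM (40.8% of all tested genes passed), 11 and 9 in 72 h LCM (41.5% of all tested genes passed) and 18 and 13 in 72 h HCM (66.7% of all tested genes passed). Without TMM factors they were 18 and 5 in 72 h LCM and 36 and 2 in 72 h HCM, with medians of all genes at 0.38 and 1.37, and Rab29 then was 0.30 and Rab7b 0.37 in 72 h HCM, both turned in direction. Of the 7 genes, 4 kept all 4 calls without TMM factors, Rab14, Rab29 and Rab7b losing 1 or more, and 6 kept them with the replicate number as a block, without Rab14. Leaving out 1 library kept 6 or 7 of them, with Rab14 or Rab29 lost.

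Rab31 in Rescue was at 90.5, 93.4 and 77.9 CPM in 24 h LCM, 90.6, 85.5 and 81.5 in 24 h HCM, 126, 84.7 and 113 in 72 h LCM and 129.8, 129 and 109 in 72 h HCM. It stood above PKP4-KO in every library of each condition, with log2 fold changes of 0.81 ± 0.13 (adjusted p = 8.77e-06) in 24 h LCM, 0.94 ± 0.13 (adjusted p = 5.52e-07) in 24 h HCM, 0.86 ± 0.13 (adjusted p = 2.84e-06) in 72 h LCM and 0.78 ± 0.13 (adjusted p = 6.75e-06) in 72 h HCM. Against WT it was lower in 24 h LCM, 72 h LCM and 72 h HCM, by -0.43 ± 0.13 (adjusted p = 0.0124), -0.36 ± 0.13 (adjusted p = 0.0259) and -0.41 ± 0.13 (adjusted p = 0.0127). Rab14 was at 90.7, 83.4 and 62.4 CPM in 24 h LCM, 92.0, 102 and 92.7 in 24 h HCM, 96.1, 63.0 and 94.0 in 72 h LCM and 101, 104 and 103 in 72 h HCM. Its differences from PKP4-KO were 0.46 ± 0.18 (adjusted p = 0.0455) in 24 h LCM, 0.65 ± 0.18 (adjusted p = 0.00374) in 24 h HCM, 0.81 ± 0.18 (adjusted p = 0.000498) in 72 h LCM and 1.57 ± 0.18 (adjusted p = 3.43e-08) in 72 h HCM. Against WT it passed in 1 condition, 72 h LCM (-0.51 ± 0.18, adjusted p = 0.0276). For Rab31, the call against WT in 24 h LCM was lost without any 1 of Rescue 24 h LCM replicate 3 and WT 24 h LCM replicate 2 (-0.37 to -0.35, adjusted p up to 0.0834). Rab31 did not pass there without TMM factors (-0.55, adjusted p = 0.0664) either. Also in 72 h LCM this call was lost without any 1 of Rescue 72 h LCM replicate 2 and WT 72 h LCM replicates 2 and 3 (-0.37 to -0.22, adjusted p up to 0.221). Rab31 did not pass there without TMM factors (-0.37, adjusted p = 0.221) either. In 72 h HCM this call was lost without any 1 of Rescue 72 h HCM replicate 3 and WT 72 h HCM replicate 2 (-0.33, adjusted p up to 0.0785). Rab31 did not pass there without TMM factors (-0.01, adjusted p = 0.972) either. For Rab14, the call against WT in 72 h LCM was lost without any 1 of Rescue 72 h LCM replicate 2 and WT 72 h LCM replicates 2 and 3 (-0.47 to -0.33, adjusted p up to 0.193). Rab14 did not pass there without TMM factors (-0.52, adjusted p = 0.186) either. Against PKP4-KO its 24 h LCM call was lost without any 1 of Rescue 24 h LCM replicates 1 and 2 and PKP4-KO 24 h LCM replicates 1 and 3 (0.34 to 0.50, adjusted p up to 0.216). Rab14 did not pass there with the replicate number as a block (0.45, adjusted p = 0.0575) and without TMM factors (0.55, adjusted p = 0.147) either.

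Rab4a went beyond WT in Rescue. Its libraries lay at 6.83, 7.99 and 9.23 CPM in 24 h LCM, 8.37, 7.77 and 8.45 in 24 h HCM, 6.96, 8.39 and 10.5 in 72 h LCM and 7.88, 6.43 and 5.09 in 72 h HCM. All exceeded the WT libraries of their condition, with log2 fold changes against WT of 1.37 ± 0.25 (adjusted p = 0.00011) in 24 h LCM, 1.62 ± 0.25 (adjusted p = 1.57e-05) in 24 h HCM, 1.41 ± 0.25 (adjusted p = 4.33e-05) in 72 h LCM and 1.5 ± 0.26 (adjusted p = 4.46e-05) in 72 h HCM. Rab17 in Rescue was at 124% (95% interval 86.8 to 179) of WT in 24 h LCM, 37.6% (95% interval 26.1 to 53.3) in 24 h HCM, 75.1% (95% interval 55.3 to 101) in 72 h LCM and 63.5% (95% interval 53.5 to 75.4) in 72 h HCM. Rab43 in Rescue was at 47.2% (95% interval 31.9 to 69.1), 91.4% (95% interval 56.1 to 149), 58.5% (95% interval 40.2 to 84.2) and 94.3% (95% interval 61.4 to 146) of WT in the same order. Against PKP4-KO, Rab17 passed in all 4 conditions and Rab43 in 24 h HCM, 72 h LCM and 72 h HCM (adjusted p = 0.458 in 24 h LCM). For Rab43, the 24 h HCM call against PKP4-KO was lost without any 1 of Rescue 24 h HCM replicate 1 and PKP4-KO 24 h HCM replicates 2 and 3 (2.19 to 2.48, adjusted p up to 0.0919).

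Rab29 in Rescue was at 5.87, 5.96 and 6.74 CPM in 24 h LCM, 9.30, 7.83 and 6.71 in 24 h HCM, 6.23, 8.39 and 8.29 in 72 h LCM and 7.65, 7.17 and 9.85 in 72 h HCM. Against PKP4-KO its log2 fold changes were -0.84 ± 0.18 (adjusted p = 0.000526) in 24 h LCM, -0.50 ± 0.18 (adjusted p = 0.0255) in 24 h HCM, -0.98 ± 0.18 (adjusted p = 7.11e-05) in 72 h LCM and -0.88 ± 0.18 (adjusted p = 0.000147) in 72 h HCM, the last with the turn given above. Against WT it passed in 1 condition, 24 h LCM (0.54 ± 0.19, adjusted p = 0.0317). Rab35 and Rab2a differed from WT in Rescue too. Rab35 differed by -0.59 ± 0.12 (adjusted p = 0.000456) in 24 h LCM, -0.67 ± 0.12 (adjusted p = 0.000113) in 24 h HCM, -0.48 ± 0.12 (adjusted p = 0.00228) in 72 h LCM and -0.46 ± 0.12 (adjusted p = 0.00358) in 72 h HCM. Rab2a differed by -0.83 ± 0.14 (adjusted p = 4.36e-05) in 24 h LCM, -0.84 ± 0.14 (adjusted p = 4.03e-05) in 24 h HCM, -0.92 ± 0.14 (adjusted p = 5.66e-06) in 72 h LCM and -0.87 ± 0.14 (adjusted p = 1.94e-05) in 72 h HCM. For Rab27b the differences from WT were -0.97 ± 0.33 (adjusted p = 0.0321) in 24 h LCM, -0.89 ± 0.32 (adjusted p = 0.0457) in 24 h HCM, 0.17 ± 0.32 (adjusted p = 0.73) in 72 h LCM and -0.27 ± 0.32 (adjusted p = 0.526) in 72 h HCM. Since Rescue and PKP4-KO are compared with the same WT libraries, these values are given side by side and not counted against each other. For Rab29, the 24 h HCM call against PKP4-KO was lost without any 1 of Rescue 24 h HCM replicates 2 and 3 and PKP4-KO 24 h HCM replicates 1, 2 and 3 (-0.50 to -0.39, adjusted p up to 0.136). Rab29 did not pass there without TMM factors (-0.45, adjusted p = 0.0542) either. Against WT its 24 h LCM call was lost without any 1 of Rescue 24 h LCM replicates 2 and 3 and WT 24 h LCM replicates 1 and 3 (0.41 to 0.57, adjusted p up to 0.168). Rab29 did not pass there without TMM factors (0.40, adjusted p = 0.132) either. For Rab35, the 72 h HCM call was lost without WT 72 h HCM replicate 3 (-0.31, adjusted p = 0.0581). Rab35 did not pass there without TMM factors (-0.03, adjusted p = 0.878) either. For Rab2a, the 72 h HCM call was lost without TMM factors (-0.47, adjusted p = 0.0876). For Rab27b, the 24 h LCM call was lost without any 1 of Rescue 24 h LCM replicates 2 and 3 and WT 24 h LCM replicate 1 (-1.03 to -0.74, adjusted p up to 0.163). Rab27b did not pass there without TMM factors (-1.10, adjusted p = 0.0594) either. In 24 h HCM its call was lost without any 1 of Rescue 24 h HCM replicates 1, 2 and 3 and WT 24 h HCM replicates 1 and 2 (-0.99 to -0.62, adjusted p up to 0.233). Rab27b did not pass there without TMM factors (-0.79, adjusted p = 0.195) either.

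Against WT, 8 Rab genes passed the same way in all 4 conditions in Rescue (16% of 50, beside 8.34% of all tested genes). Rab15, Rab4a and Rab24 were higher, and Rab35, Rab2a, Rab9, Rab12 and Rab7b were lower. The counts higher and lower were 7 and 10 in 24 h LCM (24.8% of all tested genes passed), 5 and 10 in 24 h HCM (23.2% of all tested genes passed), 7 and 11 in 72 h LCM (32.4% of all tested genes passed) and 12 and 11 in 72 h HCM (36.2% of all tested genes passed). Without TMM factors they were 4 and 5 in 24 h HCM and 16 and 2 in 72 h HCM, with the median of all genes at 0.08 and 0.46. Leaving out WT 72 h HCM replicate 3 lowered the 72 h HCM count from 23 to 14, and 4 of the 8 genes then kept all 4 calls. The 72 h HCM calls lost were those of Rab35 (-0.31, adjusted p = 0.0581), Rab9 (-0.35, adjusted p = 0.0754), Rab12 (-0.26, adjusted p = 0.119) and Rab7b (-0.37, adjusted p = 0.0829). Without TMM factors 3 of the 8 kept all 4, Rab15, Rab4a and Rab24, and with the compared groups alone in the fit 5. Rab15 had 248, 358 and 194 counts in 24 h LCM, 212, 181 and 237 in 24 h HCM, 314, 111 and 166 in 72 h LCM and 186, 182 and 59 in 72 h HCM in Rescue, higher than WT in every library of each condition. Rab9 was lower by -0.93 ± 0.15 (adjusted p = 2.49e-05) in 24 h LCM, -0.98 ± 0.15 (adjusted p = 1.21e-05) in 24 h HCM, -1.17 ± 0.15 (adjusted p = 4.28e-07) in 72 h LCM and -0.55 ± 0.15 (adjusted p = 0.00426) in 72 h HCM. Rab24 overlaps Prelid1 on the other strand, which had a median of 13081 counts against 704.5, so that its values are uncertain. Leaving out any other library kept 7 or 8 of the 8, with Rab24 or Rab7b lost.

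**Figure D5:**
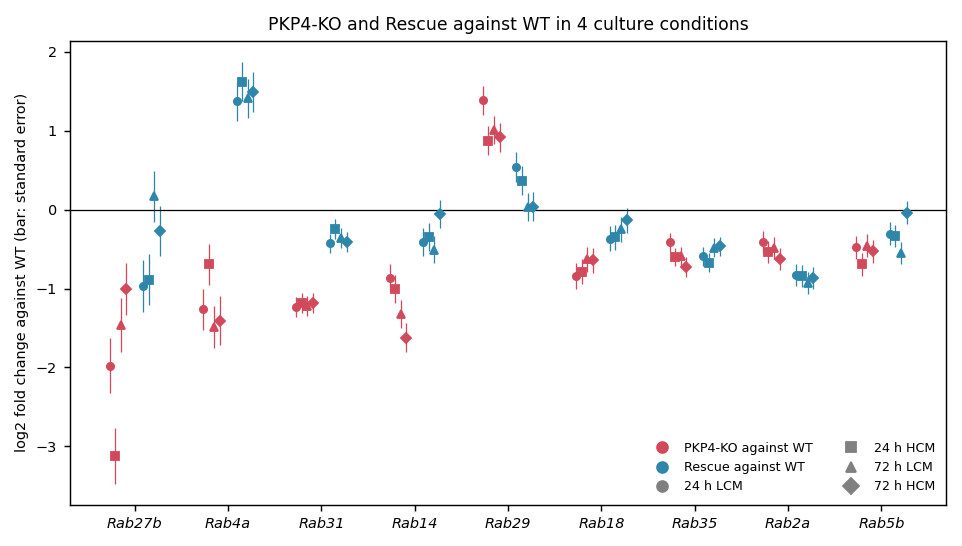
Log2 fold change against WT of 9 Rab genes that passed in PKP4-KO against WT in all 4 conditions, for PKP4-KO and Rescue, with TMM scaling; bars are standard errors, and both genotypes are compared with the same WT libraries. Rab4a is below 0 in PKP4-KO and above 0 in Rescue in all 4 conditions, while Rab2a and Rab35 are below 0 in both.

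Culture time was compared within each genotype and medium. The titles of the 72 h and 24 h libraries carry the marks HD and LD, and they do not say whether time alone differed. From 24 h to 72 h in HCM, 5 Rab genes rose and 1 fell in WT (17.8% of all tested genes passed), 18 rose and 8 fell in PKP4-KO (55.8%), and 9 rose and 3 fell in Rescue (24.3%). In LCM, 8 rose and 3 fell in WT (9.96%), 12 rose and 3 fell in PKP4-KO (26.1%), and 7 rose and 2 fell in Rescue (9.81%). The splits without TMM factors were 2 and 3 in WT HCM, 4 and 31 in PKP4-KO HCM, 7 and 10 in PKP4-KO LCM, 8 and 1 in Rescue HCM, and 6 and 0 in Rescue LCM, with the median of all genes at -0.27, -1.16, -0.39, 0.06 and -0.15. Rab3d rose most in PKP4-KO, by 2.92 ± 0.13 (adjusted p = 2.59e-16) in HCM and 1.90 ± 0.13 (adjusted p = 3e-12) in LCM, followed in HCM by Rab25 (2.79 ± 0.22, adjusted p = 2.95e-11) and Rab11a (2.37 ± 0.14, adjusted p = 5.61e-14). In WT HCM, Rab11a rose by 0.78 ± 0.13 (adjusted p = 9.22e-05) and Rab31 by 0.68 ± 0.13 (adjusted p = 0.0003), and Rab38 fell by 0.59 on the log2 scale (adjusted p = 0.000112). The WT HCM count was 3 in place of 6 without WT 72 h HCM replicate 3 or WT 24 h HCM replicate 1. For Rab31, the rise in WT HCM was lost without TMM factors (0.44, adjusted p = 0.151).

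The proteins that act on Rab GTPases were followed in 4 lists. Among 51 effectors that passed the filter, of 60 listed, the numbers higher and lower in PKP4-KO were 2 and 26 in 24 h LCM, 1 and 26 in 24 h HCM, 2 and 27 in 72 h LCM and 3 and 27 in 72 h HCM. Of all tested genes the shares higher and lower were 19.7% and 20.6% in 24 h LCM, 20.7% and 22.2% in 24 h HCM, 21.3% and 23.8% in 72 h LCM and 21.9% and 29.9% in 72 h HCM. By total counts alone, without TMM factors, the effector numbers were 2 and 24 in 24 h LCM, 1 and 22 in 24 h HCM, 1 and 33 in 72 h LCM and 1 and 38 in 72 h HCM. In all 4 conditions 8 effectors were lower and 1 was higher, beside 10.2% lower and 8.48% higher among all tested genes, and without TMM factors 7 and 1 of these kept all 4 calls, without Ocrl. Rab11fip2, which links Rab11 to myosin V, was lower by -2.58 in 24 h LCM, -2.05 in 24 h HCM, -2.32 in 72 h LCM and -3.52 in 72 h HCM on the log2 scale. Wdr44, another Rab11 effector, was at -1.57 in 24 h LCM, -1.85 in 24 h HCM, -2.16 in 72 h LCM and -2.72 in 72 h HCM. Its 24 h LCM call by edgeR was near the threshold (adjusted p = 0.0327). Both had low counts in PKP4-KO. Rab11fip2 had 4 to 56 (median 31) there and 31 to 341 (median 169) in WT. Wdr44 had 3 to 35 (median 11.5) in PKP4-KO and 8 to 159 (median 57.5) in WT. Bicd1, a dynein adaptor of Rab6 vesicles, was the exception, with 0 to 8 (median 0) counts over the 12 WT libraries, 1 to 82 (median 24.5) in PKP4-KO and 0 to 3 (median 0.500) in Rescue.

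Of 8 genes for escort, prenylation and GDI, Chm and Chml, the Rab escort proteins REP1 and REP2, were lower in all 4 conditions. Chm had 8 to 140 (median 67.5) counts in WT, 1 to 51 (median 13) in PKP4-KO and 16 to 161 (median 86.5) in Rescue. Chml had 2 to 50 (median 27) counts in WT and 0 to 10 (median 2) in PKP4-KO, where 10 of 12 libraries were at or under 3 counts. In Rescue Chml had 2 to 53 (median 14.5) counts. Chm did not pass in 24 h HCM without TMM factors (-1.57, adjusted p = 0.0695). The numbers higher and lower in the list were 1 and 3 in 24 h LCM, 0 and 4 in 24 h HCM, 3 and 3 in 72 h LCM and 2 and 2 in 72 h HCM. The shares of all tested genes in each condition are those given above for the effectors. The numbers without TMM factors were 0 and 5 in 24 h LCM, 0 and 3 in 24 h HCM, 1 and 4 in 72 h LCM and 0 and 6 in 72 h HCM.

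Of 37 GAPs tested, of 39 listed, 6 were lower and 0 were higher in all 4 conditions by edgeR, and 3 and 12 in 24 h LCM, 4 and 11 in 24 h HCM, 5 and 12 in 72 h LCM and 3 and 17 in 72 h HCM were higher and lower in each. Those 6 kept all 4 calls without TMM factors, where the numbers were 1 and 12 in 24 h LCM, 3 and 10 in 24 h HCM, 1 and 20 in 72 h LCM and 0 and 27 in 72 h HCM. Tbc1d16, a GAP for Rab4a, was at -2.80 in 24 h LCM, -2.46 in 24 h HCM, -2.87 in 72 h LCM and -3.12 in 72 h HCM on the log2 scale. Evi5, a GAP of the Rab11 route, was at -2.33 in 24 h LCM, -1.45 in 24 h HCM, -2.51 in 72 h LCM and -3.65 in 72 h HCM. Tbc1d16 had 3 to 35 (median 16) counts in PKP4-KO and 58 to 279 (median 140.5) in WT. Evi5 had 5 to 169 (median 55) in PKP4-KO and 58 to 568 (median 301.5) in WT. Of 34 exchange factors tested, of 39 listed, 6 were lower and 2 higher in all 4, with 4 and 10 in 24 h LCM, 5 and 10 in 24 h HCM, 3 and 14 in 72 h LCM and 4 and 20 in 72 h HCM higher and lower in each. Sbf2 was at -1.02 in 24 h LCM, -0.97 in 24 h HCM, -0.99 in 72 h LCM and -1.40 in 72 h HCM. Ric1, part of the exchange factor for Rab6, was at -0.91 in 24 h LCM, -0.85 in 24 h HCM, -1.20 in 72 h LCM and -1.08 in 72 h HCM. The exchange factor numbers without TMM factors were 3 and 11 in 24 h LCM, 3 and 3 in 24 h HCM, 2 and 20 in 72 h LCM and 1 and 25 in 72 h HCM, and 2 of the 6 lower and 1 of the 2 higher genes kept all 4 calls. In that scaling Sbf2, Ric1, Gapvd1 and Rin3 did not pass in 24 h HCM (adjusted p = 0.0841, 0.0678, 0.155 and 0.0795), and Rgp1, the other part of the Rab6 exchange factor, was 0.21 (adjusted p = 0.268) in 72 h LCM and turned to -0.09 in 72 h HCM. Dennd2d was higher, with 0 to 12 (median 3) counts in WT and 7 to 43 (median 22) in PKP4-KO. Its median in Rescue lay above both, at 10 to 90 (median 47.5) counts. The shares of all tested genes given for the effectors apply to both lists.

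Other members overlap a gene with reads on the opposite strand. Among them were Rab3a with Mpv17l2 (median 598 counts against 52), Rab2b with Tox4 (1003.5 against 40.5), Rab6a with Mrpl48 (1033 against 1153.5) and Rab9 with Trappc2 (161.5 against 394.5). Libraries were strand-specific, but the strand setting of the counting is not stated, and the values of these members carry that limit. Overlaps here and above are of whole gene spans. Whether the exons overlap was not tested, so that it is open whether reads were mixed. Pseudogenes with reads of their own were Rab7.ps1 with at most 202 counts and Rab11b.ps2 with at most 245.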

How the data were processed

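RNA was sequenced from 36 libraries in 12 groups of 3. The authors prepared strand-specific poly(A) libraries, aligned reads with HISAT2 2.1.0, dropped secondary alignments in SAMtools 1.10 and counted reads per gene of the Ensembl GRCm39 annotation with featureCounts 2.0.0 (versions per the submitters' processing notes). The deposited counts are whole numbers without normalization, and the authors' strand setting in counting is not stated. Groups came from the labels. The sample titles mark the 72 h libraries with HD and the 24 h libraries with LD. The titles do not explain these letters or say whether anything besides time differed.

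From these counts, R 4.3.3 and edgeR 4.0.16 were used: genes were kept with filterByExpr, scaled by TMM and tested by quasi-likelihood in a single model of the 12 group means (24 residual degrees of freedom). P-values were adjusted after Benjamini and Hochberg over the 15114 tested genes, with a threshold of 0.05, and only the Rab genes are printed. Errors of log2 fold changes are standard errors (the fold change divided by the square root of F). CPM values are TMM-scaled, and 3 counts, a floor of 0.110 to 0.436 CPM, was taken as the lowest level a library can show, for counting error only. Totals of 13602728 to 22467187 counts set the precision of low genes. Between libraries of a group the chi-square per gene was 7.47 to 292 over 36 pairs, far above sampling noise, and no 2 libraries were treated as copies. Positions came from the GRCm39 annotation, in which 98.9% of rows and all 59 Rab genes were found. Gene lengths were those deposited with the counts.

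The members and lists were chosen with earlier results of these data known. Library values are given for members called the same way in PKP4-KO against WT in all 4 conditions, those called in WT with calcium at both times, those reversed in Rescue and the largest interactions. The interactions with time, and the fit without PKP4-KO 72 h HCM, were added after seeing the data. Alternatives were library sizes without TMM factors, no filter, a minimum of 10 counts per library, fits of the compared groups alone, DESeq2 1.42.0 with its size factors, the replicate number as a block, and each library left out in turn. For the lists of regulators and effectors only the scaling without TMM factors was examined. Same-numbered libraries deviated together (every correlation over 0.1) in 3 of 24 comparisons, Rescue against PKP4-KO in 24 h HCM and 72 h LCM and HCM against LCM in WT at 24 h. The scripts were tested on simulated counts of PKP4-KO and WT in 24 h HCM with 14498 genes tested, where 43 of 96 genes changed by 1 and 71 of 98 changed by 2 on the log2 scale were recovered with 0 false calls. Apart from the changed genes, which went up and down alike, all simulated libraries shared the same mean profile. The simulation therefore held no shift in RNA composition and could not test the scaling.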

Additional observations from a re-analysis of the deposited data

Results flagged for a closer look

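Effects that differed between genotypes or times, by a test of the difference itself in the edgeR fit, are given here on the log2 scale with the adjusted p range. The calcium response at 24 h differed between PKP4-KO and WT by -3.41 for Rab17, -2.12 for Rab44, -1.10 for Rab25, -0.86 for Rab11a, -0.74 for Rab3d and 1.02 for Rab32 (adjusted p 0.000259 to 0.0314). At 72 h this difference was -4.78 for Rab6b, 0.93 for Rab38, 0.97 for Rab3d and 2.61 for Rab15 (adjusted p 8.67e-05 to 0.00243).

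The effect of PKP4-KO against WT differed between 72 h and 24 h in HCM by -1.52 for Rab32, -1.0 for Rab23, -0.78 for Rab34, 0.55 for Rab1a, 0.84 for Rab22a, 0.85 for Rab24, 0.88 for Rab38, 0.97 for Rab5c, 1.44 for Rab44, 1.56 for Rab40b, 1.58 for Rab11a, 2.12 for Rab27b, 2.20 for Rab25 and 2.78 for Rab3d (adjusted p 1.33e-12 to 0.0373). In LCM the difference was 0.68 for Rab11a, 1.07 for Rab3d, 1.82 for Rab2b and 3.81 for Rab6b (adjusted p 0.000133 to 0.0263). Fitted values of Rab17 and Rab6b rest on libraries near 0 counts and depend on the prior count. The HCM differences include the PKP4-KO 72 h HCM libraries with the lowest TMM factors, and their part in these values was not tested.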

How the results depend on the processing

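Counts of Rab genes called in 28 comparisons kept within 1.5 times under DESeq2 and the replicate block. Without TMM factors they moved from 15 to 9 in Rescue against WT in 24 h HCM. They moved from 15 to 29 for calcium in PKP4-KO at 72 h and from 6 to 3 for the calcium difference at 24 h. Without the filter they moved to 9 in Rescue against WT in 24 h HCM, 13 of 20 in Rescue against PKP4-KO in 24 h LCM. For calcium they were then 1 of 2 and 8 of 15 in PKP4-KO at 24 h and 72 h, and 7 of 12 in Rescue at 24 h. With at least 10 counts they were 1 for calcium in PKP4-KO at 24 h and 2 of 4 for the calcium difference at 72 h. With only the compared groups they were 7 of 11 for calcium in WT at 72 h, 0 of 2 in PKP4-KO at 24 h by edgeR (4 at an unadjusted p under 0.05, and 2 by DESeq2), and 7 and 6 of 12 in Rescue at 24 h and 72 h. In those smaller fits they were 3 of 6 for time in WT HCM, 8 of 15 for time in PKP4-KO LCM and 3 of 6 for the calcium difference at 24 h. The change of the PKP4-KO effect with time in LCM passed for 2 of 4 Rab genes both without the filter and with only the compared groups. The 11 genes called the same way in PKP4-KO in all 4 conditions became 12 without TMM factors (9 shared), 7 without the filter, 8 with at least 10 counts, 6 with only the compared groups, 11 with the block and with DESeq2 (11 shared in both), and 9 to 12 with 1 library left out. Those gained without TMM factors were Rab1a, Rab3d and Rab9. With at least 10 counts Rab17, Rab43 and Rab4a were not tested, since they had libraries under 10 counts, and none of those tested lost a call. In the 3 conditions other than 72 h HCM there were 13, the 11 among them, also in a fit without that group.

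Leaving out 1 library gave 17 to 22, 21 to 24, 19 to 23 and 23 to 28 calls in PKP4-KO against WT in 24 h LCM, 24 h HCM, 72 h LCM and 72 h HCM. It gave 14 to 24 in Rescue against WT in 72 h HCM, 1 to 2 and 9 to 15 for calcium in PKP4-KO at 24 h and 72 h, 7 to 11 in Rescue at 72 h, and 3 to 7 for time in WT HCM. The lowest counts came without Rescue 72 h HCM replicate 2 or Rescue 72 h LCM replicate 2, PKP4-KO 72 h HCM replicate 3, WT 72 h HCM replicate 3, and WT 24 h HCM replicate 1. Over all pairs of a gene value and a left-out library, 420 lost the call and 2925 were unchanged. The latter number includes values of PKP4-KO against WT that passed neither before nor after, so that it is not a count of calls kept. The replicate block, fitted because groups share replicate numbers, lost 17 gene calls and added 1. Where same-numbered libraries deviated together it lost Rab38 for calcium in WT at 24 h (0.30, adjusted p = 0.0526), Rab5b in Rescue against PKP4-KO in 24 h HCM (0.36, adjusted p = 0.0554) and Rab1a in 72 h LCM (0.30, adjusted p = 0.0537). In the other comparisons the libraries share only a number, and correlations over all 24 ran from -0.81 to 0.79.

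Directions turned in 33 gene values, all without TMM factors, with the log2 fold changes that follow. In PKP4-KO against WT, 72 h HCM they were Rab11a -0.081, Rab1b -0.60, Rab28 -0.72, Rab38 -0.092, Rab7b -0.46 and Rab8a -0.084. In PKP4-KO against WT, 72 h LCM they were Rab32 -0.030. In Rescue against PKP4-KO, 72 h HCM they were Rab1b 0.39, Rab22a 0.53, Rab29 0.30, Rab30 0.15, Rab38 0.92, Rab3d 0.20, Rab7b 0.37 and Rab8a 0.42. In HCM against LCM, WT 72 h they were Rab7 -0.0084. In HCM against LCM, PKP4-KO 72 h they were Rab1a -0.31, Rab1b -0.15, Rab38 -0.22 and Rab9 -0.30. In 72 h against 24 h, PKP4-KO HCM they were Rab1a -0.78, Rab1b -0.19, Rab22a -0.38, Rab29 -0.65, Rab31 -0.40, Rab38 -0.77, Rab5b -0.55, Rab5c -0.15, Rab7 -0.68, Rab8a -0.66 and Rab9 -0.48. In 72 h against 24 h, PKP4-KO LCM they were Rab7 -0.029. In PKP4-KO against WT effect, 72 h minus 24 h, HCM they were Rab1a -0.28. The construction of this scaling moves all genes of a comparison together. Genes within 5 Mb of the 11 genes, 27 to 115 each, had median log2 fold changes in PKP4-KO of -0.89 to 0.43. Limits are set by 3 libraries a group, by the low effective depth of PKP4-KO 72 h HCM and by counts near 0 for Rab17, Rab43 and Rab6b, where a fall could not be sized beyond its counting interval.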
